A study of Mus musculus with 8 samples.

Results

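Ifitm1, Ifitm2 and Ifitm3 encode the interferon-induced transmembrane proteins IFITM1, IFITM2 and IFITM3, and were taken by name from the 48440 genes of the deposited tables, where each of the 3 names matched 1 gene. The family was selected on its measured normalized counts in wild type and Kdm6b-null gonads. Their transcripts were read in mouse gonads at embryonic day 11.5 as polyadenylated RNA, from wild type and Kdm6b-null embryos of either sex (XX and XY). No transgene, Cre driver or treatment is named for any group. Kdm6b encodes a histone H3 demethylase, and the study asks what its loss does to the gonad when the XY embryo begins testis determination. Each of the 4 groups had 2 libraries, and every library pooled 2 pairs of gonads. Whether these pools were from separate litters is not stated, so p-values measure the spread between libraries, which may be partly technical.

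IFITM proteins are small proteins of the plasma membrane and endosomes that block the fusion of enveloped viruses with the cell. Interferon raises their transcription in many cell types, and several tissues also make them without interferon. In the early mouse embryo Ifitm3, first described as fragilis, marks the cells that give rise to primordial germ cells, and Ifitm1 is also made by germ cells. Loss of the gene cluster in mice does not prevent germ cells from forming.

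The 3 genes lie together on chromosome 7 (GRCm38). In the authors' coordinates Ifitm2 (ENSMUSG00000060591.9) spans 140954837 to 140955987 on the minus strand, Ifitm1 (ENSMUSG00000025491.14) spans 140967221 to 140969825 on the plus strand, and Ifitm3 (ENSMUSG00000025492.6) spans 141009586 to 141010770 on the minus strand. The sequences just upstream of the RefSeq starts are shown because the members did not behave alike and because interferon acts on this class of gene through short promoter elements. They come from RefSeq (GRCm38.p6), run 5' to 3' on the strand of the gene, and stop where the next exon of the GENCODE M21 annotation begins. Capitals mark the core of the interferon-stimulated response element, which reads GAAA, any 2 bases, and GAAA again. The Ifitm1 stretch is chr7:140967826-140968027 (plus strand), the Ifitm2 stretch chr7:140955988-140956211 (minus strand) and the upstream Ifitm3 stretch chr7:141010771-141010994 (minus strand). The last line is chr7:141010716-141010742 (minus strand), in the 5' UTR of Ifitm3 a few bases after its RefSeq start.
Ifitm1: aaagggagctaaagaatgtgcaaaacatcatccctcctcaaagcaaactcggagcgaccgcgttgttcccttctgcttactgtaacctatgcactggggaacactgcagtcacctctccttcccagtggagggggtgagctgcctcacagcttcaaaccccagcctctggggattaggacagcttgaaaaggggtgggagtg
Ifitm2: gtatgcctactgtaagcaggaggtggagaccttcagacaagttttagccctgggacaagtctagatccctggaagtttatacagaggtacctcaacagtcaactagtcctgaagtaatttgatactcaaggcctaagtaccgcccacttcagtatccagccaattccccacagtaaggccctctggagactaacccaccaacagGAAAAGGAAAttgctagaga
Ifitm3: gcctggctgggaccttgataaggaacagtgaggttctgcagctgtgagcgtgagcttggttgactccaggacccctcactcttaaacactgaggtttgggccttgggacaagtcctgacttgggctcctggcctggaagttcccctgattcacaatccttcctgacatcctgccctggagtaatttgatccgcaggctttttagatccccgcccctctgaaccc
Ifitm3 after the start: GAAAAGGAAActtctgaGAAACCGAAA

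In the window from 250 bases before to 50 after the RefSeq start, searched on both strands, the response element core was found 2 times in Ifitm3, 1 time in Ifitm2 and 0 times in Ifitm1. It was present in 3.44% of 32851 such mouse windows, and in at least one window of 18 of the 34 interferon target genes listed here that had one (52.9%). The gamma-activated site TTCNNNGAA was found in Ifitm3 only, between and partly overlapping its response elements, and in 8.30% of all windows. The GC box GGGCGG occurred 2 times in Ifitm2 and 1 time in Ifitm3 (35.7% of windows). TATAAA (13.6%) and the SOX core AACAAT (10.7%) each occurred 1 time, in Ifitm2. The Ifitm1 window held none of the 5 motifs. It covers only the RefSeq start, and the stretch printed lies in an intron of a longer Ifitm1 transcript that starts further upstream. A match in letters is not evidence of binding, and its absence says nothing about other windows.

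Values are normalized counts, that is gene counts that the authors divided by 1 size factor per library, with XX and XY libraries scaled in separate tables. The libraries held 19107103 to 19828638 counts, and the members were read from 176 to 1175 counts each. Kdm6b itself was at 1125 to 1249 normalized counts in null XX against 2218 to 2796 in wild type XX, and at 1037 to 1238 in null XY against 3181 to 3399 in wild type XY. Which part of the gene the null lacks is not stated in the sources used here, so this checks the labels only in part. The labels call the cells pre-granulosa (XX) and pre-Sertoli (XY) but describe whole gonads. The gonadal genes Nr5a1, Gata4 and Wt1 were read in every library. Foxl2, which defines granulosa cells, was at 0.996 to 13.6 normalized counts in XX libraries. The 6 pre-granulosa markers, Foxl2 among them, summed to 2313 to 2750 in XX libraries and to 2346 to 4180 in XY libraries. One library stood apart: XX wild type replicate 1 held 1823 summed normalized counts of 7 adrenal cortex markers against 357 to 597 in the other 7 libraries, and 2511 of 13 germ cell markers against 538 to 1694. XX fold changes of Ifitm1 and Ifitm3 and the medians of the gene lists are therefore also given without it, where it moves them. Values of neighbouring genes are given with it.

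Because the values of all 8 libraries were in view when the family was selected, levels and fold changes of the 3 members are a description, and no test of them is read as support. In bulk tissue, fewer cells that make a transcript and less transcript per cell cannot be told apart.

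Ifitm1 was the member that was lower without Kdm6b in both sexes. In XY gonads it was at 906 and 1105 normalized counts in the wild type libraries and at 513 and 594 in the Kdm6b-null libraries. The groups did not overlap, as for 16.3% of all tested XY genes with the null lower. The null mean was 55.1% of wild type (1005 ± 140.3 and 553 ± 57.2, SD, n = 2 each). In XX gonads Ifitm1 was at 1139.9 and 586 in wild type and at 479 and 283 in the null. These groups did not overlap either, as for 22.5% of all tested XX genes with the null lower. The means were 863 ± 392 and 381 ± 139 (SD, n = 2 each). But the wild type pair was far apart, and the higher one is the library that stood apart. On the scale log2(normalized count + 1) the fold change was -0.86 (SE 0.13) in XY and -1.15 (SE 0.39) in XX. Without XX wild type replicate 1 the XX value was -0.67, and without XX wild type replicate 2 it was -1.63. The difference between the XY and the XX fold change was 0.29 (SE 0.47).

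Ifitm2, whose product works mainly in late endosomes, had nearly the same level in every library. It was at 982 and 957 normalized counts in wild type XY, 893 and 1133 in null XY, 1044 and 939 in wild type XX, and 1044 and 947 in null XX. Groups overlapped in both sexes. In XY the log2 fold change was 0.05 (SE 0.13), and in XX it was 0.01 (SE 0.11). In XX the wild type and null means (991 and 995) differed by less than the SD of either pair (74.4 and 69.1). In XY the means (969.7 and 1013) differed by less than the SD of the null pair (169.5), but by more than that of the wild type pair (17.9).

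Ifitm3, the endosomal member best known for restricting influenza virus, was lower in null XX gonads and overlapped between the groups in XY gonads. In XX gonads it was at 408 and 255 normalized counts in wild type and at 207 and 184 in the null. The groups did not overlap, as for 22.5% of all tested XX genes with the null lower. The null mean was 59.0% of wild type (means 332 ± 109 and 196 ± 16.6, SD, n = 2 each). In XY gonads it was at 174 and 261 in wild type and at 201 and 244 in the null, and the null values lay between those of wild type. Its log2 fold change was -0.72 (SE 0.25) in XX and 0.05 (SE 0.24) in XY. The XX value was -0.38 without wild type replicate 1 and -1.06 without wild type replicate 2. In XY its sign turned with the library left out, from -0.24 without wild type replicate 1 to 0.34 without wild type replicate 2. The XY and XX fold changes differed by 0.78 (SE 0.38), and by 0.44 without XX wild type replicate 1. No test of this difference is read here.

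**Figure D1:**
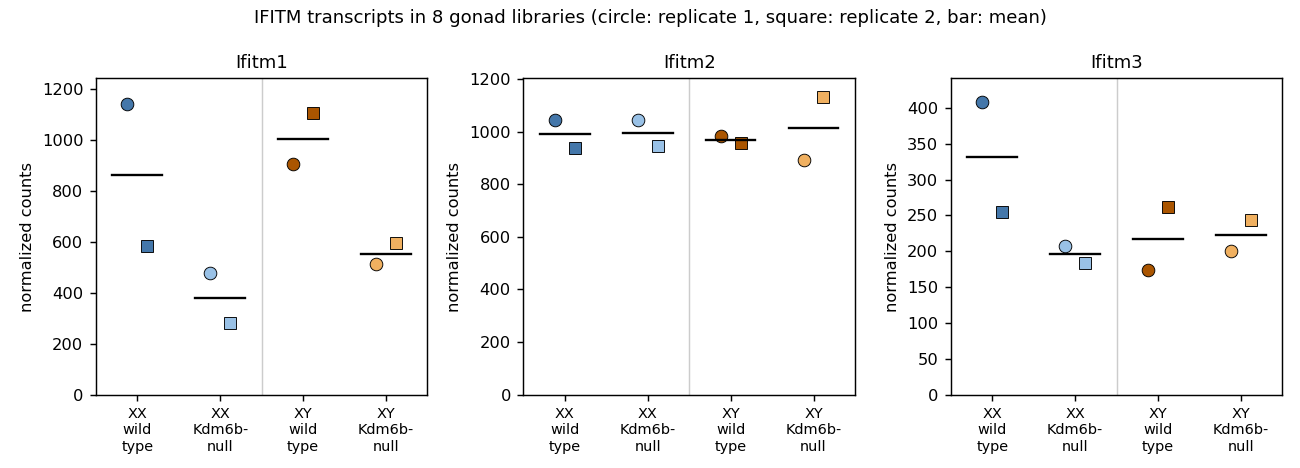
Normalized counts (vertical axes, from 0) of Ifitm1, Ifitm2 and Ifitm3 in the 2 libraries of each group, with the mean as a bar; XX and XY were scaled in separate tables. Ifitm1 is lower in all 4 Kdm6b-null libraries than in wild type of the same sex, Ifitm2 is level, and Ifitm3 is lower in the XX null pair and overlaps in XY, with XX wild type replicate 1 highest at 408. Of all tested genes, 16.3% in XY and 22.5% in XX have both null libraries below both wild type libraries.

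Counts of members are set against those over all genes. The authors' deposited table for XY called Ifitm1 alone of the 3 members (log2 fold change -0.86, DESeq2 adjusted p = 6.7e-04), where 0.402% of the genes with an adjusted p were called at 0.05 and 0.279% were called lower. The authors' deposited table for XX again called Ifitm1 alone (-1.18, adjusted p = 0.034), where 2.77% of genes were called and 0.823% called lower. Ifitm3 had an adjusted p of 0.20 there. Of the genes with an adjusted p in both of the authors' deposited tables, 0.0545% were called lower in both, Ifitm1 among them. By limma, fitted here to all genes with a mean of at least 10, 0 of the 3 members passed. In XX the log2 fold changes of Ifitm1 and Ifitm3 moved with the wild type library left out. They were -0.67 and -0.38 without replicate 1, and -1.63 and -1.06 without replicate 2. With all libraries the fits called 0 genes in all in XY (0.0%, 834 with an unadjusted p under 0.05), in XX (0.0%, 2383) and in the difference between the sexes (0.0%, 1443). Fits with a library left out rest on a lone library in a group, so no call of a member is read from them. Groups that did not overlap were found for 32.9% of genes in XY (16.3% lower in the null) and for 49.5% in XX (22.5% lower). Both sexes did not overlap and were lower in the null for 4.97% of genes, so Ifitm1 shares that pattern with many. These contrasts were in view when the family was selected, and nothing is read from the members' counts.

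A ratio taken within a library does not depend on how the tables were scaled. Per kilobase of annotated exon (1094 bases for Ifitm1, 655 for Ifitm2 and 678 for Ifitm3), Ifitm2 was the most abundant member in all 8 libraries, with 49.2 to 73.2% of the summed level of the 3 genes. Ifitm1 came second in 7 libraries and was just below Ifitm3 in XX Kdm6b-null replicate 2. The level of Ifitm1 relative to Ifitm2 was 0.65 and 0.37 in wild type XX, 0.27 and 0.18 in null XX, 0.55 and 0.69 in wild type XY, and 0.34 and 0.31 in null XY. The lowest wild type ratio was 0.37 and the highest null ratio 0.34, a narrow gap. What share of all genes parts in this way relative to Ifitm2 was not counted, so nothing is read from it. The level of Ifitm3 relative to Ifitm2 was 0.38 and 0.26 in wild type XX, 0.19 and 0.19 in null XX, 0.17 and 0.26 in wild type XY, and 0.22 and 0.21 in null XY. Here wild type and null overlapped across the 8 libraries.

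**Figure D2:**
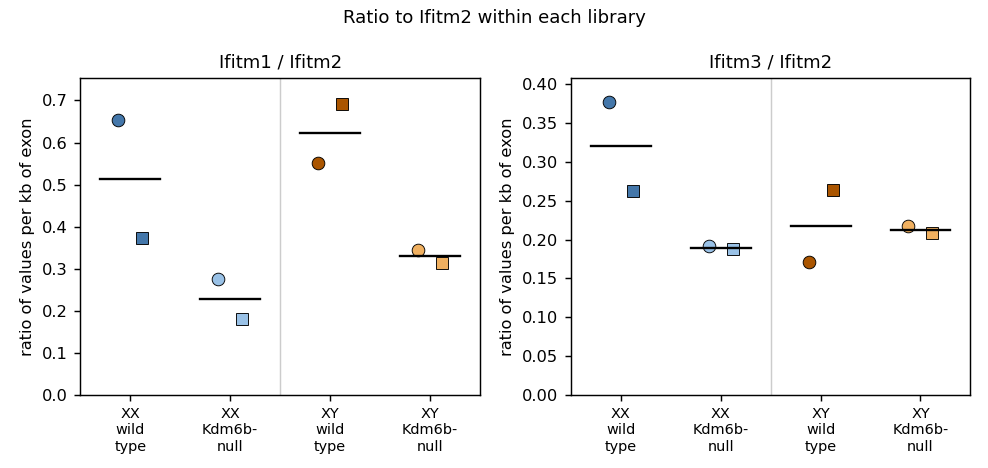
Level of Ifitm1 (left) and Ifitm3 (right) divided by that of Ifitm2 in the same library, per kilobase of exon, with the mean of each group as a bar. The Ifitm1 ratio is 0.18 to 0.34 in null libraries and 0.37 to 0.69 in wild type libraries, and the share of genes that part in this way was not counted. XY wild type replicate 1 has the lowest Ifitm3 ratio of all.

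Ordered by group mean, Ifitm1 was highest in wild type XY, followed by wild type XX, null XY and null XX. The ranges of the first pair overlapped, as did those of wild type XX and null XY (586 and 594 at their nearest). The null XX pair (283 and 479) lay below all others, and sex was not tested because the tables were scaled apart. For Ifitm3 the order was wild type XX, null XY, wild type XY and null XX, and the last 3 groups lay within 174 to 261. The group means of Ifitm2 ran from 969.7 to 1013, a narrower span than the SD of null XY (169.5).

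Reads of near-identical copies can blur a gene family. No stretch of 100 bases, the read length, in the GENCODE M21 transcripts of Ifitm1 or Ifitm3 occurred in a transcript of another gene. For Ifitm2 34.9% of such stretches did. They lay mostly in Gm45717, which is annotated over 268 bases of Ifitm2 exon on the same strand and was at 0 in all 8 libraries. How reads that fall on both genes were counted is not stated, so the level of Ifitm2 per kilobase is uncertain.

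Other genes of the cluster and family were low. Ifitm5, a bone-cell member beside Ifitm2, was at 16.2 to 25.2 normalized counts. Ifitm6, next to Ifitm3, was at 0 to 2.02, below the limit of 3 counts (2.91 to 3.09 normalized counts) that a value of 0 allows. Ifitm10 was at 11.1 to 19.2, and Ifitm7, on chromosome 16, at 16.5 to 31.0. Among the 10 further genes of the CD225-domain family, which includes the synaptic protein genes Prrt2 and Syndig1, 6 passed the minimum mean in each sex. Their log2 fold changes had a median of -0.02 in XY (3 higher, 3 lower) and -0.28 in XX (1 higher, 5 lower, and -0.21 without XX wild type replicate 1), with 0 calls by limma, 0 at an unadjusted p under 0.05 and 0 in the authors' deposited tables. Ifitm7 had the smallest limma p in both sexes, at -0.57 (SE 0.34) in XY and -0.49 (SE 0.35) in XX.

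Most genes around the members on chromosome 7 had small log2 fold changes in XY, of either sign, and mostly negative ones in XX. Within 100 kb of a member lay 24 genes, of which 12 other than the members had a mean of at least 10. In XY gonads 6 of the 12 had positive and 6 negative log2 fold changes, with their median at 0.00 and a range of -0.36 to 0.75. In XX gonads 2 were positive and 10 negative, with a median of -0.21 and a range of -1.34 to 0.10. By limma 0 of them passed in either sex (1 in XY and 0 in XX at an unadjusted p under 0.05, against 834 and 2383 of all genes), and 0 were called in the authors' deposited tables. The most distant values belonged to Nlrp6, an inflammasome sensor gene, at 0.75 (SE 0.51) in XY and -1.34 (SE 0.70) in XX. Ifitm5 was at 0.19 and -0.21. Athl1, a glycosidase gene on the Ifitm2 side of the cluster, was at 0.02 in XY and -0.14 in XX, and B4galnt4, a glycosyltransferase gene on the Ifitm3 side, at 0.26 and 0.10. The proteasome gene Psmd13 was at -0.04 and 0.03, the mitochondrial deacetylase gene Sirt3 at 0.10 and -0.12, Ric8a at -0.01 and -0.01, and Bet1l at -0.15 and -0.20. Pkp3, a desmosome gene, was at -0.22 and -0.47, Sigirr, a brake on interleukin signalling, at -0.07 and -0.57, Ano9 at -0.36 and -0.31, and Gm15542 at 0.01 and -0.26. No test compared Ifitm1 with its neighbours.

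**Figure D3:**
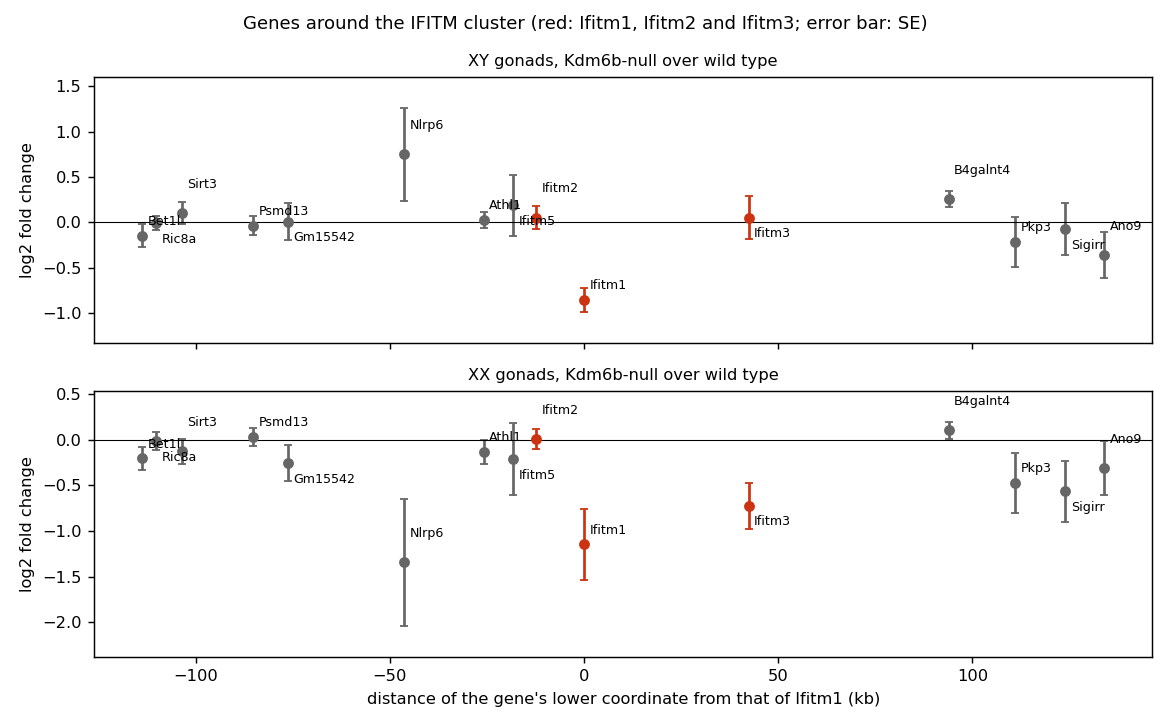
Log2 fold change (Kdm6b-null over wild type, error bars SE) of the genes around the cluster with a mean of at least 10, by distance from Ifitm1 in kb, for XY (top) and XX (bottom). In XY Ifitm1 (-0.86) lies below all other genes, which range from -0.36 to 0.75; in XX Ifitm1 (-1.15) and Ifitm3 (-0.72) are low and Nlrp6 (-1.34) has the widest error.

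The interferon pathway was listed from ligand to target, with results of these data already known. Of the 9 interferon ligand genes, 7 were at 0 in every library, and the other two, Ifna2 and Ifnk, summed to no more than 1.95 normalized counts in a library, below the limit that a value of 0 allows. The receptor chains and signalling genes were present throughout. All 19 passed the minimum mean, with a median log2 fold change of -0.01 in XY (9 higher, 10 lower) and 0.04 in XX (11 higher, 8 lower, and 0.05 without XX wild type replicate 1), and 0 passed by limma or in the authors' deposited tables (0 at an unadjusted p under 0.05). The smallest p-values belonged in XY to the receptor chains Ifnar1 (-0.17, SE 0.07) and Ifngr2 (-0.18, SE 0.09), and in XX to the receptor chain Il10rb (-0.42, SE 0.19) and to Usp18, a brake on the type I receptor (-1.10, SE 0.52).

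Interferon target genes were split in XY gonads and mostly negative in XX gonads. In XY 31 of the 45 listed passed the minimum mean, 15 with positive and 16 with negative log2 fold changes. Their median was -0.01, where the median of all genes was 0.00. By limma 0 passed (4 at an unadjusted p under 0.05, 2 in each direction, against 834 of all 16821 genes). The authors' deposited table called only Gbp2b, a guanylate-binding protein gene, which was at 111 and 159 normalized counts in wild type and at 15.6 and 23.7 in the null (limma log2 fold change -2.72, SE 0.33). In XX 34 passed the minimum mean, 5 positive and 29 negative, with a median of -0.49 and 0 calls by limma or in the authors' deposited table (3 negative at an unadjusted p under 0.05, against 2383 of all 17028 genes in either direction). Without XX wild type replicate 1 that median was -0.21, and without the other libraries in turn it was -0.50 to -0.40. The genes of smallest p in XX were Gbp9 (-0.73, SE 0.20) and Cmpk2, a mitochondrial nucleotide kinase gene (-0.69, SE 0.26).

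Genes whose products bind or modify IFITM proteins had log2 fold changes of either sign. Cd9 was at 0.03 in XY and -0.56 in XX, and Vcp was at 0.40 in XY and 0.42 in XX. Of 14 listed, 13 passed the minimum mean, with medians of -0.01 in XY (6 higher, 7 lower) and 0.14 in XX (8 higher, 5 lower). Leaving out XX wild type replicate 1 took the XX median to 5.1e-04, and leaving out XX Kdm6b-null replicate 2 took it to 0.02. None passed by limma or in the authors' deposited tables (0 of 13 in XY and 4 of 13 in XX at an unadjusted p under 0.05, against 834 of 16821 and 2383 of 17028 genes in all). In XX the smallest p-values were those of Fyn, a tyrosine kinase gene (0.34, SE 0.09), and Kdm1a, a lysine demethylase gene (0.44, SE 0.15). In XY they were those of Vapa, a membrane contact protein gene (-0.16, SE 0.07), and Fyn (-0.15, SE 0.08).

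**Figure D4:**
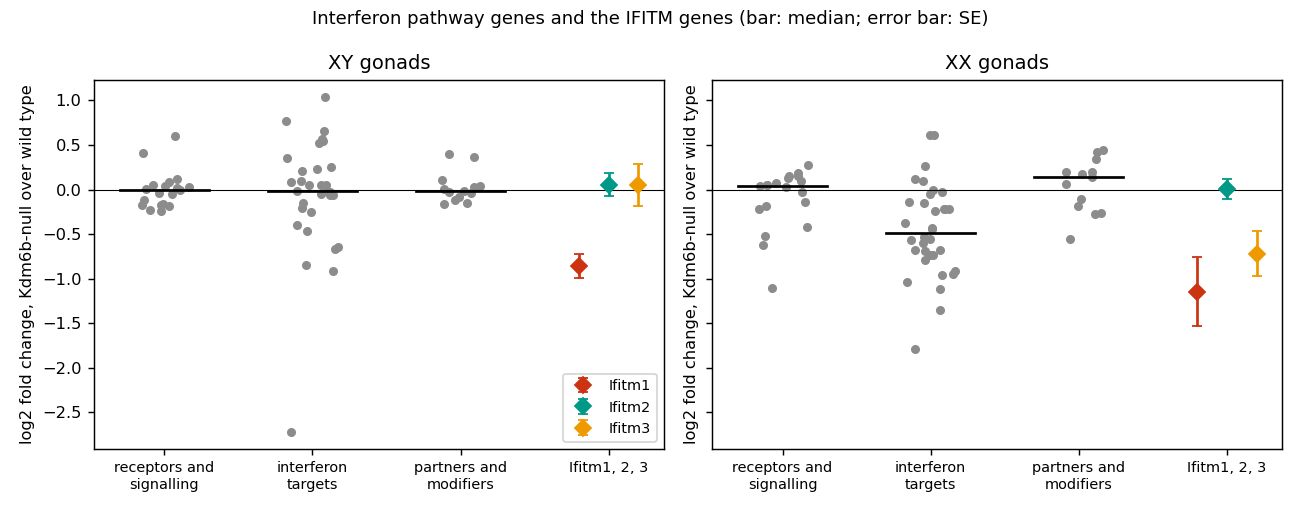
Log2 fold change, Kdm6b-null over wild type, for each tested gene of 3 interferon-related lists (grey points, median as a bar) and for Ifitm1, Ifitm2 and Ifitm3 (diamonds, error bars SE). The receptor list centres near 0 in both sexes. The partner list is at -0.01 in XY and 0.14 in XX, and the target list is at -0.01 in XY and -0.49 in XX.

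Markers of the listed cell types differed between libraries too. The 13 germ cell markers, none of which was at 0 in any library, summed to 2511 and 538 normalized counts in wild type XX, 828 and 716 in null XX, 827 and 1589 in wild type XY, and 1694 and 1415 in null XY. In wild type XX the library with more germ cell transcript also had more Ifitm1 (1139.9 against 586) and Ifitm3 (408 against 255). In XX wild type replicate 2 the germ cell sum was below both null libraries. Ifitm1 and Ifitm3 were above both null libraries there. In XX gonads 3 of the 13 germ cell markers had positive and 10 negative log2 fold changes (median -0.28, and 0.82 without wild type replicate 1). In XY gonads 12 of the 13 had positive log2 fold changes (median 0.32, and -0.04 without wild type replicate 1). The 7 adrenal cortex markers summed to 1823 and 357 in wild type XX and to 470 and 578 in null XX, and Cyp21a1, which defines adrenal steroid cells, was at 0 in XY wild type replicate 2. The 11 macrophage markers, all above 0 in every library, summed to 3827 and 2844 in wild type XX, 3030 and 2544 in null XX, 2562 and 2699 in wild type XY, and 3246 and 3683 in null XY. The 11 endothelial markers summed to 13349 and 14819 in wild type XX, 20050 and 19790 in null XX, 17249 and 22913 in wild type XY, and 18079 and 16733 in null XY. The 7 pre-Sertoli markers summed to 2134 and 2188 in wild type XY but to 1644 and 1181 in null XY, lower in the null as Ifitm1 was. In XX gonads they ran the other way, at 1029 and 1207 in wild type against 1496 and 1296 in the null. The 11 matched erythroid markers, which include globins, ranged from 61523 to 250572 over the libraries. Their median log2 fold change was 0.45 in XY, where it ran from -0.29 without null replicate 2 to 1.26 without null replicate 1. In XX it was -0.58, and it ran from -1.13 without wild type replicate 1 to -0.04 without wild type replicate 2. The 6 neural crest and neuron markers summed to 3269 and 1754 in wild type XX, 2028 and 1577 in null XX, 2042 and 2565 in wild type XY, and 1725 and 1733 in null XY. Their medians were -0.28 in XY (5 of 6 lower, 0.01 without null replicate 2) and -0.34 in XX (6 of 6 lower, 0.01 without wild type replicate 1). Gonadal somatic genes had a median of -0.43 in XY (6 of 6 lower) and 0.37 in XX (6 of 6 higher). The 5 pre-granulosa markers that passed the minimum mean had medians of -0.38 in XY and -0.41 in XX. The XX median was -0.30 without wild type replicate 1, -0.08 without null replicate 1 and -0.12 without null replicate 2. The part of these cell types in the member levels was not tested.

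**Figure D5:**
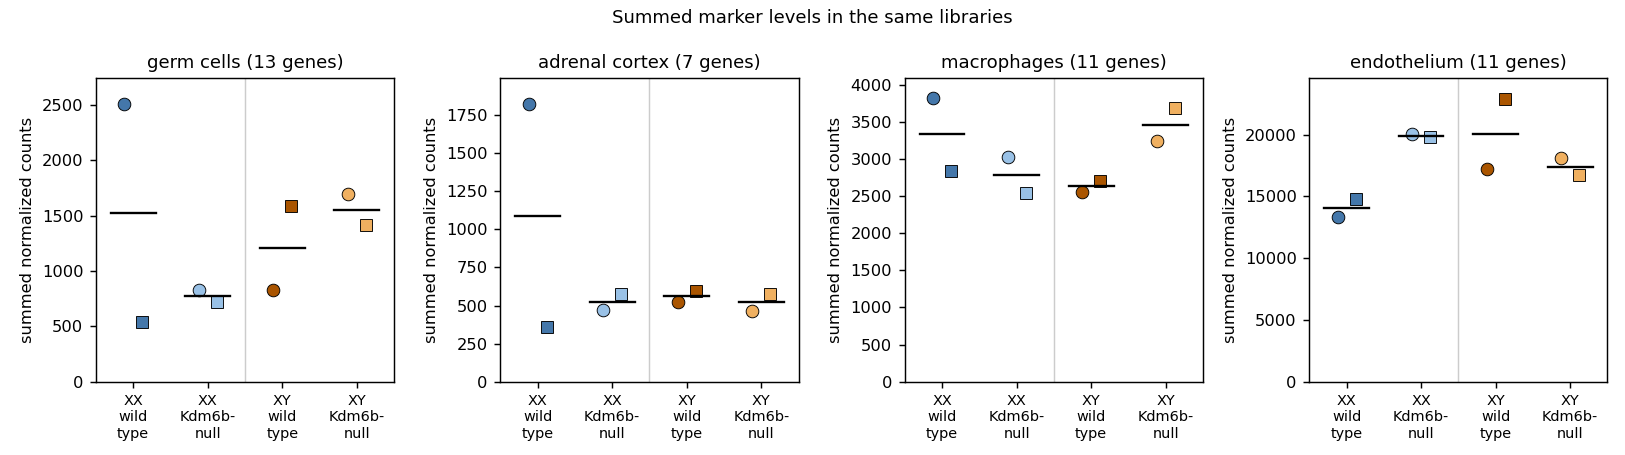
Summed normalized counts of germ cell, adrenal cortex, macrophage and endothelial markers in each library, with the group mean as a bar; circles are replicate 1 and squares replicate 2. XX wild type replicate 1 is highest for germ cells (2511), adrenal cortex (1823) and macrophages (3827).

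The genes with the pattern closest to each member over the 8 libraries were found by the root mean square difference of log2 values after the mean of each table was subtracted, among 16566 other genes. For Ifitm1, whose own values deviated by 0.60 from the table means by the same measure, the closest were Cyp2s1, a cytochrome P450 gene (0.16), Akr1cl, an aldo-keto reductase gene (0.17), the zinc finger gene St18 (0.20), Fabp3, a fatty acid-binding protein gene (0.20), and Gch1, which starts tetrahydrobiopterin synthesis (0.21). Being chosen for their likeness to Ifitm1, all 5 had negative log2 fold changes in both sexes by that choice, from -1.05 to -0.67 in XY and from -1.36 to -0.73 in XX. Akr1cl, for example, was at 734 and 952 normalized counts in wild type XY, 386 and 495 in null XY, 712 and 345 in wild type XX, and 363 and 245 in null XX. For Ifitm3 (own deviation 0.35) they were Cbx7, a Polycomb subunit gene (0.07), 1700048M11Rik (0.10), the neurotrophin gene Ntf5 (0.12), Slc17a9, a vesicular nucleotide transporter gene (0.12), and Itm2a (0.13). For Ifitm2, which hardly varied (0.10), the closest genes were Emc3, Mrps18a, Gins4, Coprs and 2010320M18Rik, all within 0.03 to 0.04. The members were not each other's closest genes: Ifitm3 was 331st from Ifitm1, at a difference of 0.40, and Ifitm2 was 5164th, at 0.58. Counted from Ifitm3, Ifitm1 was 8170th and Ifitm2 3331st. Counted from Ifitm2, Ifitm1 was 15585th and Ifitm3 12960th.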

How the data were processed

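Polyadenylated RNA of 8 gonad libraries was sequenced, 2 in each group named by the sample titles. Reads were processed with STAR 2.7.11, cutadapt 4.9, DESeq2 2.11.40.8, featureCounts 2.0.8 and the GRCm38 (mm10) genome, per the submitters' processing notes. Strand, multimapping and annotation settings are not stated. The deposited signal is a count per gene divided by 1 size factor per library, set by the authors within each sex. The authors' deposited tables give a log2 fold change, its standard error and a Wald score (the last not used), and p-values with adjusted p-values. The deposited XX comparison has no header, so its columns were named by the order of the XY header, and the column of means was checked against the normalized counts. Each library's values are multiples of a step of 0.970 to 1.03, which was read as 1 count for the depths and for the limit of 3 counts at 0.

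All tests made here used limma 3.58.1 (R 4.3.3) with a variance trend on log2(normalized count + 1), which understates changes of low genes, with Benjamini-Hochberg adjustment over all genes and a threshold of 0.05. Genes needed a mean of at least 10 in the table, which left 16821 in XY, 17028 in XX and 17282 for the difference between the sexes, a contrast of within-table differences over 8 libraries. On simulated data with 2 libraries a group, limma called 81.8% (XY, 16857 genes) and 79% (XX, 17083 genes) of genes changed by 1 on the log2 scale. These were drawn with 1 dispersion for all genes, unlike the data, so the shares do not carry over to the real libraries. There limma called 0 genes, and even Kdm6b had limma adjusted p-values of 0.12 in XY and 0.19 in XX. A gene that did not pass by limma is therefore not read as unchanged. The members and lists were chosen with earlier results of these data known. The rule for named genes took Kdm6b, the members, the family, neighbours within 100 kb and the 5 genes closest to each member. From the family, interferon and partner lists it took the authors' calls or otherwise up to 2 genes of smallest limma p. Some cell type markers were called by the authors, such as Cdh5 in XX and Csf1r in XY, and these calls are not listed. Tusc5 was read as Trarg1 by its synonym. GENCODE M21 (GRCm38), which holds 99.2% of the gene IDs, gave exon lengths and transcripts, and RefSeq gave the windows around starts. Alternatives were another pseudocount, no filter, no trend, equal library totals, each library left out, a replicate block and all libraries in 1 fit. Of the value columns 0 were left unmatched.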

Additional observations from a re-analysis of the deposited data

How the results depend on the processing

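With 2 libraries a group, the precision of every value rests on few pools, and Ifitm1 and Ifitm3 in XX lean on wild type replicate 1. The log2 fold change of Ifitm1 kept its negative sign under every alternative run, from -0.999 to -0.71 in XY and from -1.63 to -0.67 in XX with a library left out, and from -1.21 to -1.13 in XX and -0.86 to -0.85 in XY otherwise. Ifitm3 stayed negative in XX (-1.06 to -0.38). The values of Ifitm2 in both sexes, of Ifitm3 in XY (-0.24 to 0.34) and of the difference between the sexes for Ifitm1 (-0.19 to 0.77) took either sign. With libraries scaled to equal totals, the null level of Ifitm1 was 54.99% of wild type in XY and 42.0% in XX.

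The number of genes called by limma, 0 in each comparison, was 1 in XY without the variance trend, 10 in XX with all 8 libraries in 1 fit, and 0 with a pseudocount of 10, without the filter or with equal library totals. Leaving out 1 library gave 0 to 2 calls in XY, 0 to 3489 in XX and 0 to 29 in the difference (29 without XX wild type replicate 2), where a lone library is assumed to vary like the others; the cause was not tested. With a replicate block there were 23 calls in XY, 2 in XX and 0 in the difference. Same-numbered libraries deviated together in XY (correlation over genes 0.24) and not in XX (-0.06), and the labels do not say what a number marks, so whether same-numbered libraries share a batch or day is unknown. The block put Ifitm1 in XY at a limma adjusted p of 0.046, against 0.33 without it, 0.28 to 0.88 under the other alternatives fitted to XY alone and 1.0 with all 8 libraries in 1 fit. In XX its limma adjusted p was 0.32, and 0.11 to 0.46 under the alternatives that left no library out. A count model on recovered reads was planned and not run, because a check on the values did not accept steps so close to 1.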

Other observations

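Called lower in the null in both sexes of the authors' deposited tables were 8 genes, which is 16% of the 50 called lower in XY and 6.61% of the 121 called lower in XX, and 0.0545% of the genes with an adjusted p in both. Beside Ifitm1 they were Kdm6b, the cell cycle gene Ccnd1, the calcium channel gene Cacna1g, the protease inhibitor gene Serpinb6a, Gm15920, Gm2044 and Rn18s-rs5. Ccnd1 had log2 fold changes of -0.49 in XY and -0.49 in XX in the authors' deposited table.

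Bst2, which encodes another interferon-induced membrane protein that restrains viruses, was picked after its values were seen. In XY gonads it was at 162 and 209 in wild type (normalized counts) and at 81.9 and 116 in the null. In XX gonads it was at 299.8 and 89.0 in wild type and at 80.7 and 77.8 in the null. The groups did not overlap in either sex, as for 4.97% of all genes with the null lower in both. XX wild type replicate 1 was the highest library, and without it the XX values were nearly level.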
